A study of Homo sapiens with 12 samples.

Results

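Enzyme genes of tyrosine and tryptophan breakdown were followed in HepG2, a widely used line from a human liver cancer, under nobiletin, sorafenib and their combination. The genes were taken by name from a count table of 58735 genes and numbered 9. TAT, HPD, HGD and FAH belong to tyrosine breakdown, which also takes up phenylalanine once it has been converted to tyrosine. TDO2, AFMID, KMO, KYNU and HAAO belong to the kynurenine route of tryptophan. The 12 libraries formed 4 groups of 3. SOR+NOB cells received sorafenib at 2 µM with nobiletin at 5 µM, SOR cells sorafenib alone at 2 µM, NOB cells nobiletin alone at 5 µM, and Control cells the vehicle. Nobiletin is a citrus flavonoid that carries several methoxy groups. Sorafenib blocks RAF kinases and growth factor receptors and is given against liver cancer. All groups were the same line, grown in Eagle's medium with fetal serum and antibiotics. How long cells were exposed is not given in the sources used here. Nor do the labels say whether replicates were separate cultures, so p-values measure only the spread between these libraries, which may be technical.

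Tyrosine breakdown is mainly a liver pathway. TAT moves the amino group off tyrosine, HPD turns the product into homogentisate, HGD opens its ring, and FAH makes the last cut, which yields fumarate and acetoacetate. Inherited loss of FAH causes a severe liver disease, loss of HGD causes alkaptonuria, and HPD is the target of the drug nitisinone. In the kynurenine route TDO2, the liver enzyme, or IDO1 opens the ring of tryptophan. AFMID then releases kynurenine, KMO hydroxylates it, KYNU cleaves the side chain, and HAAO opens the remaining ring on the way to NAD.

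Total counts per library ranged from 17945656 to 25669823. One library, SOR+NOB replicate 1, was unlike the rest of its group. Its chi-square per degree of freedom against the other SOR+NOB libraries was 19.2 and 27.6, against 2.78 to 5.58 for all other pairs of replicates, and it held counts for 20138 genes, against 22542 to 25014 elsewhere. Fold changes of members and other named genes that rest on this library are therefore followed by the value without it. Captions, medians and the flagged results do not repeat it, and the marker fold changes below are given with all libraries only. Mitochondrial ribosomal RNA made up 2.75 to 3.10% of counts in SOR+NOB, 1.84 to 2.01% in SOR, 1.73 to 1.78% in NOB and 1.32 to 1.40% in Control. Mitochondrial mRNA made up 3.40 to 4.68% in SOR+NOB, 8.30 to 9.0% in SOR, 7.64 to 7.74% in NOB and 6.49 to 7.11% in Control. The part of either in the results was not tested. All 7 hepatocyte markers (ALB, APOA1, APOB, TTR, SERPINA1, AFP and HNF4A) had counts. Their summed CPM (counts per library size after TMM scaling) was 26200 to 29800 in SOR+NOB, 65100 to 67600 in SOR, 25200 to 25900 in NOB and 39400 to 41400 in Control. This sum was higher in SOR and lower in SOR+NOB and NOB than in Control, as TAT and KYNU also were, and its part in those results was not tested. Its genes did not move as one. In SOR+NOB against Control ALB, APOA1 and SERPINA1 rose (log2FC 0.34 to 0.44) and APOB, TTR, AFP and HNF4A fell (-1.46 to -0.52). In SOR against Control APOB and TTR fell (-0.29 and -0.32) and the other 5 rose, and in NOB against Control ALB, AFP, APOB and TTR fell, APOA1 rose (0.27), and SERPINA1 and HNF4A did not pass. Of the 13 markers of other cells, KRT7 of cholangiocytes had 0 counts in all libraries together, COL1A2 of stroma 1, PTPRC of leukocytes 6 and COL1A1 of stroma 44, while the others had from 253 (CDH5) to 123962 (LYZ). The summed markers of 3 leukocyte genes, carried by LYZ, were 208 to 230 CPM in SOR+NOB, 330 to 343 in SOR, 707 to 725 in NOB and 599 to 624 in Control. Summed endothelial markers were 5.36 to 7.48 CPM in SOR+NOB, 12.8 to 17.1 in SOR, 12 to 13.6 in NOB and 12.2 to 15.8 in Control, and summed stromal markers 20.4 to 24.5 in SOR+NOB, 24.7 to 28.3 in SOR, 23.5 to 23.9 in NOB and 34.2 to 37.2 in Control. Summed cholangiocyte markers, KRT19 and EPCAM, were 170 to 189 CPM in SOR+NOB, 179 to 193 in SOR, 102 to 109 in NOB and 183 to 198 in Control. The part of these markers in the results was not tested. In bulk RNA, fewer cells that express a gene and less RNA per cell cannot be told apart.

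Of the 9 genes, 7 had enough counts for the test. An edgeR quasi-likelihood test for any difference between groups called each of the 7 at adjusted p under 0.05, where 78.5% of all 17115 tested genes did so too. Values below are CPM by library. Each log2 fold change (log2FC) comes with its SE and its Benjamini-Hochberg adjusted p over all tested genes, both from edgeR.

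Sorafenib alone raised the 7 tested members, and with nobiletin added some of them lay above Control and others below. In SOR against Control all 7 rose, where 41.0% of tested genes changed, 21.7% rose and 19.3% fell. Their median log2FC was 0.70, against 0.00 over all tested genes. In NOB against Control 4 of 7 changed, where 38.2% of tested genes changed: FAH and AFMID rose (18.9% of tested genes rose) and TAT and KYNU fell (19.2% fell). In SOR+NOB against Control 5 of 7 changed, near the 64.2% of all tested genes: HPD and FAH rose (32.2% rose), and TAT, AFMID and KYNU fell (32.0% fell). These 3 comparisons share the Control libraries.

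**Figure D1:**
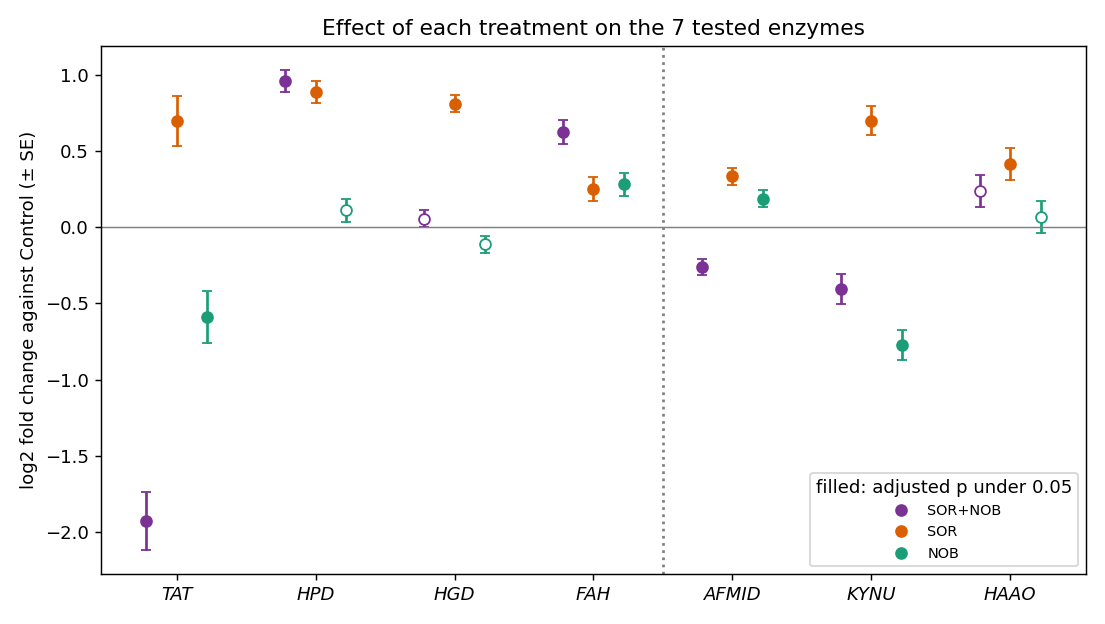
Log2 fold change against Control (vertical axis, ± SE derived from the edgeR F statistic) of the 7 tested enzymes. The tyrosine route is left and the tryptophan route right of the dotted line, with filled points at adjusted p under 0.05. In SOR all 7 points are filled and above 0, from 0.25 for FAH to 0.89 for HPD, while in SOR+NOB TAT lies at -1.93 and HPD at 0.96.

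TAT, the first enzyme of the tyrosine route and a classical glucocorticoid-inducible liver gene, lies on the minus strand (GRCh38, chr16:71565660-71577130, ENSG00000198650). It had 1.71, 2.66 and 2.72 CPM in SOR+NOB, 14.1, 14.7 and 15.6 in SOR, 5.36, 7.16 and 5.69 in NOB, and 7.39, 10.6 and 9.37 in Control. All SOR libraries lay above all Control libraries, all NOB libraries below them, and all SOR+NOB libraries below every other library. TAT rose in SOR against Control (log2FC 0.70 ± 0.16, adjusted p = 0.0013). It was 3.81-fold lower in SOR+NOB than in Control (log2FC -1.93 ± 0.19, adjusted p = 1.02e-08, and -1.76 without SOR+NOB replicate 1). The largest difference among the 7 tested members was the one between SOR+NOB and SOR, where TAT was 6.18-fold lower (log2FC -2.63 ± 0.19, adjusted p = 4.66e-11, and -2.46 without that library). Against NOB it was lower in SOR+NOB too (log2FC -1.34 ± 0.20, adjusted p = 3.65e-06, and -1.17 without that library). The smaller fall in NOB against Control (log2FC -0.59 ± 0.17, adjusted p = 0.00822) lost its call without Control replicate 2 (adjusted p = 0.062) and without NOB replicate 1 (adjusted p = 0.0508). TAT overlaps the antisense gene TAT-AS1. The strand setting of the counting is not given, so reads of the pair cannot be told apart. TAT-AS1 had 15 counts in all, 10 of them in SOR+NOB replicate 3, against 2077 for TAT. Such totals, here and below, do not show how far shared reads affect the counts of a member.

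HPD makes homogentisate and is on the minus strand of chr12:121839527-121863596 (ENSG00000158104). The 250 bases before its RefSeq start at 121858859 (GRCh38.p14, minus strand, chr12:121858860-121859109) are shown because HPD had the largest rise of the 7 tested members in SOR and in SOR+NOB against Control. The motifs searched, on both strands, were TATAAA, the box CCAAT, the aryl hydrocarbon receptor core GCGTG, the cAMP response element TGACGTCA, the C/EBP motif TTGCGCAA and the HNF1 motif. None of them matched in this window of RefSeq, so no letter is in capitals. The window shown lies inside the span in the count table, downstream of the start there at 121863596. RefSeq gives HPD another start at 121888611, outside the span in the count table, and the window of that start holds GCGTG at -1.
HPD: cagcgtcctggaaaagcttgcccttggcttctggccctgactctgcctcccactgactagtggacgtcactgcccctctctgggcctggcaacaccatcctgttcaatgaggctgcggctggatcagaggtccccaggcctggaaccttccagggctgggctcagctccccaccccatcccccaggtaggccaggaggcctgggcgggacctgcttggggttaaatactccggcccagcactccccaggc

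HPD had 123, 159 and 143 CPM in SOR+NOB, 137, 132 and 135 in SOR, 81.5, 79.3 and 75.1 in NOB, and 75.0, 68.8 and 74.5 in Control. The SOR+NOB and SOR libraries overlapped and all lay above every NOB and Control library. HPD was 1.95-fold higher in SOR+NOB than in Control (log2FC 0.96 ± 0.07, adjusted p = 1.51e-10, and 1.04 without SOR+NOB replicate 1) and 1.85-fold higher in SOR than in Control (log2FC 0.89 ± 0.07, adjusted p = 1.35e-09). Against NOB it was higher in SOR+NOB by a log2FC of 0.85 ± 0.07 (adjusted p = 1.31e-09, and 0.93 without that library). In NOB against Control the log2FC of 0.11 did not pass (95% interval -0.04 to 0.27, adjusted p = 0.257). In SOR+NOB against SOR it was 0.07 (interval -0.08 to 0.22, adjusted p = 0.409), and without SOR+NOB replicate 1 it became a call (0.15, adjusted p = 0.00875). HPD overlaps the antisense gene AC079360.1, which had 73 counts in all, against 27679 for HPD.

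HGD opens the homogentisate ring (minus strand, chr3:120628173-120682571, ENSG00000113924). Its values were 130, 144 and 133 CPM in SOR+NOB, 229, 226 and 233 in SOR, 122, 127 and 114 in NOB, and 131, 134 and 126 in Control. SOR stood alone: its libraries lay above all others, which spanned a narrow band. HGD rose 1.75-fold in SOR against Control (log2FC 0.81 ± 0.06, adjusted p = 8.18e-11) and was lower in SOR+NOB than in SOR (log2FC -0.76 ± 0.06, adjusted p = 1.02e-10, and -0.73 without SOR+NOB replicate 1). Neither SOR+NOB (log2FC 0.06, interval -0.06 to 0.17, adjusted p = 0.393, and 0.08 without that library) nor NOB (log2FC -0.11, interval -0.23 to 0.01, adjusted p = 0.132) differed from Control past the threshold. The NOB difference did pass without SOR+NOB replicate 1 (adjusted p = 0.032) and in a fit of the compared libraries alone (adjusted p = 0.0232). SOR+NOB replicate 1 belongs to neither compared group. It enters through the filter, scaling, spread and adjustment, which all libraries share. A log2FC of 0.17 ± 0.06 between SOR+NOB and NOB passed (adjusted p = 0.0141, and 0.19 without SOR+NOB replicate 1). That call was lost without NOB replicate 3 (adjusted p = 0.129), without SOR+NOB replicate 2 (0.0773), with no filter on low counts (0.102), with the compared libraries alone (0.0839) and with protein-coding genes alone (0.104).

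FAH, the last enzyme of the tyrosine route (plus strand, chr15:80152490-80186946, ENSG00000103876), had 49.3, 57.0 and 55.7 CPM in SOR+NOB, 43.0, 39.2 and 42.9 in SOR, 43.8, 39.9 and 44.1 in NOB, and 35.9, 33.1 and 36.1 in Control. Its SOR+NOB libraries were above all others and its Control libraries below all others. FAH was the member that rose in each treated group. Its log2FC against Control was 0.63 ± 0.08 in SOR+NOB (adjusted p = 3.62e-07, and 0.68 without SOR+NOB replicate 1), 0.25 ± 0.08 in SOR (adjusted p = 0.0135) and 0.28 ± 0.08 in NOB (adjusted p = 0.00628). It was also higher in SOR+NOB than in SOR (log2FC 0.37 ± 0.08, adjusted p = 0.000242, and 0.43 without that library) and than in NOB (0.34 ± 0.08, adjusted p = 0.000576, and 0.40 without it). The rises in the single treatments were small. Without Control replicate 2 both lost their call (adjusted p = 0.0782 in SOR and 0.0542 in NOB), and the one in SOR also did so without SOR replicate 1 (0.0578), without SOR replicate 3 (0.0529) and with total counts in place of TMM (0.149). FAH overlaps AC087761.1, a noncoding gene on its own strand with 29 counts in all, against 11316 for FAH.

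**Figure D2:**
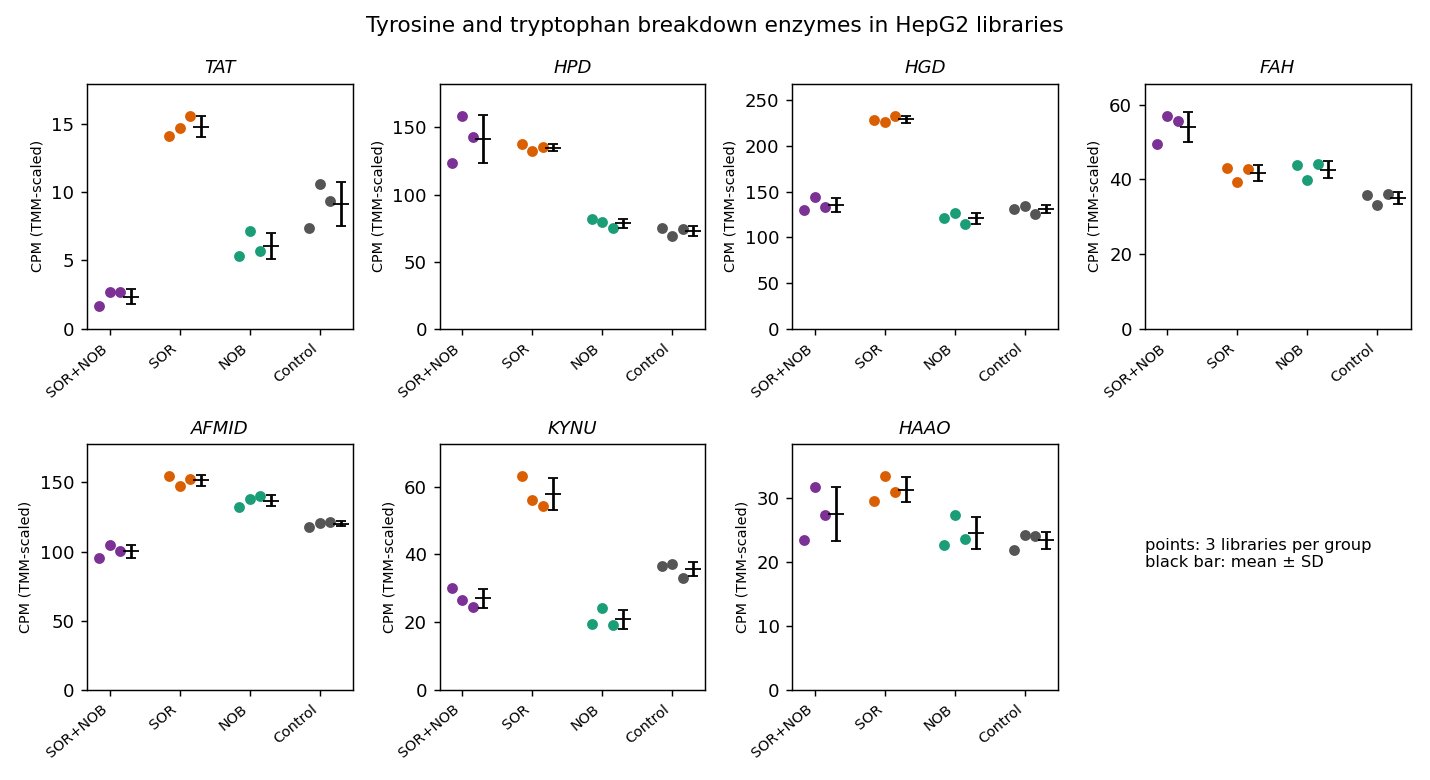
CPM by library (points, 3 per group, vertical axes from 0, TMM-scaled) with mean ± SD (black) for the 7 tested enzymes in SOR+NOB, SOR, NOB and Control. TAT is lowest and FAH highest in SOR+NOB, HGD is high in SOR alone (226 to 233 CPM), and HPD is high in both groups with sorafenib.

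TDO2 and KMO were close to undetected. TDO2, the liver enzyme that opens the tryptophan ring (plus strand, chr4:155854738-155920406, ENSG00000151790), had 2 counts in all, both in SOR replicate 3. On the opposite strand, ASIC5 overlaps TDO2 and had 0 counts in all. A count of 0 over the 3 libraries of a group allows up to 0.0472 CPM in SOR+NOB, 0.043 in NOB and 0.0457 in Control (3 counts of the group's total). IDO1, the other enzyme of that step, had 0 counts and its relative IDO2 had 1. KMO, the kynurenine hydroxylase (plus strand, chr1:241532134-241595642, ENSG00000117009), had 1 count in SOR+NOB, 3 in SOR, 13 in NOB and 1 in Control. The NOB libraries held 3, 7 and 3 of these counts. The ratio of KMO between NOB and Control was 12.2 (95% counting interval 1.84 to 519), and an edgeR fit without a filter did not call it (adjusted p = 0.266 over 33593 genes). KMO overlaps OPN3 on the opposite strand, which had 909 counts, so KMO reads are uncertain. Intervals and limits here cover counting error only.

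AFMID, which releases kynurenine from formylkynurenine, is on the plus strand of chr17:78187317-78207701 (ENSG00000183077). It starts 84 bases from the start of TK1, thymidine kinase of the nucleotide salvage route, which runs the other way (minus strand, chr17:78174075-78187233). The bases between the TK1 start and the RefSeq start of AFMID are shown because both genes are read outwards from here (GRCh38.p14, plus strand, chr17:78187234-78187361). Capitals mark TATAAA, 31 bases before the RefSeq start, and CACGC, the reverse complement of GCGTG, the core of the aryl hydrocarbon receptor element. The count table starts AFMID at 78187317, before the RefSeq start at 78187362, so both marks lie inside the counted span. Among all 35116 RefSeq windows of 300 bases, 11.5% hold TATAAA and 36.5% hold GCGTG, on either strand.
AFMID: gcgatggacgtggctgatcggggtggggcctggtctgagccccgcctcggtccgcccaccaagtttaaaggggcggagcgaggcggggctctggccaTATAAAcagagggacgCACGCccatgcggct

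AFMID had 95.5, 105 and 100.1 CPM in SOR+NOB, 154, 147 and 153 in SOR, 132, 138 and 140.3 in NOB, and 118, 121 and 121 in Control. No groups overlapped: SOR was highest, then NOB, Control and SOR+NOB. AFMID thus rose under each compound alone and fell under both. Its log2FC against Control was -0.26 ± 0.05 in SOR+NOB (adjusted p = 0.000253, and -0.23 without SOR+NOB replicate 1), 0.34 ± 0.05 in SOR (adjusted p = 2.58e-05) and 0.19 ± 0.05 in NOB (adjusted p = 0.00777). The call in NOB was lost without NOB replicate 3 (adjusted p = 0.0526). It was lower in SOR+NOB than in SOR (log2FC -0.60 ± 0.05, adjusted p = 2.84e-09, and -0.57 without that library) and than in NOB (-0.45 ± 0.05, adjusted p = 2.72e-07, and -0.42 without it). TK1 did not share this pattern. It had 30.1, 36.2 and 38.3 CPM in SOR+NOB, 9.11, 9.77 and 10.7 in SOR, 21.6, 21.0 and 24.9 in NOB, and 7.43, 6.27 and 7.67 in Control. TK1 rose in all treated groups, with a log2FC of 2.29 ± 0.12 in SOR+NOB (adjusted p = 3.03e-13, and 2.38 without SOR+NOB replicate 1), 0.46 ± 0.13 in SOR (adjusted p = 0.00589) and 1.66 ± 0.12 in NOB (adjusted p = 2.59e-10).

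KYNU, the kynureninase, is on the plus strand of chr2:142877498-143055832 (ENSG00000115919). The 250 bases before its RefSeq start (GRCh38.p14, plus strand, chr2:142877414-142877663) are shown because KYNU had the largest log2FC of the tested tryptophan enzymes. Capitals mark TATAAA or its reverse complement TTTATA at -250, -68 and -66, where the last 2 overlap. ATTGG, the reverse complement of CCAAT, is marked at -100. The count table starts KYNU at 142877498, before the RefSeq start at 142877664. The marks at -100, -68 and -66 thus lie inside the counted span. CCAAT occurs in 34.6% of the RefSeq windows. Windows matched 7 of the 9 members, and TAT and HGD had none.
KYNU: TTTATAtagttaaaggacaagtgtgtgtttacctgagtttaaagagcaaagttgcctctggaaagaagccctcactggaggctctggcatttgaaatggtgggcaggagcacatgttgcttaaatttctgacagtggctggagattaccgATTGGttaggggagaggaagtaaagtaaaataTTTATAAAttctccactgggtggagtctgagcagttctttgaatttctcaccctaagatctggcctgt

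KYNU had 30.1, 26.4 and 24.4 CPM in SOR+NOB, 63.1, 56.2 and 54.3 in SOR, 19.4, 24.1 and 19.1 in NOB, and 36.7, 37.0 and 33.2 in Control. The 4 groups did not overlap, with SOR on top and NOB at the bottom. KYNU rose in SOR against Control (log2FC 0.70 ± 0.10, adjusted p = 3.36e-06). It fell in SOR+NOB (log2FC -0.40 ± 0.10, adjusted p = 0.00128, and -0.49 without SOR+NOB replicate 1) and in NOB (log2FC -0.77 ± 0.10, adjusted p = 1.81e-06). Against SOR, SOR+NOB was 2.15-fold lower (log2FC -1.11 ± 0.10, adjusted p = 2e-09, and -1.20 without that library). Against NOB it was higher (log2FC 0.37 ± 0.10, adjusted p = 0.0036, and 0.28 without that library), a call lost only with limma on log2(FPKM + 1) with no filter (adjusted p = 0.0886). The pseudogene AC013444.2 within KYNU had 11 counts in all, against 9075 for KYNU.

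HAAO, which makes the precursor of quinolinate (minus strand, chr2:42767089-42792593, ENSG00000162882), had 23.4, 31.8 and 27.3 CPM in SOR+NOB, 29.5, 33.4 and 30.9 in SOR, 22.7, 27.3 and 23.5 in NOB, and 21.9, 24.2 and 24.1 in Control. SOR lay above Control in every library, while the SOR+NOB libraries overlapped each other group. HAAO rose in SOR against Control (log2FC 0.42 ± 0.11, adjusted p = 0.00264). Its log2FC in NOB was 0.07 (interval -0.15 to 0.29, adjusted p = 0.664). In SOR+NOB against Control it was 0.24 (interval 0.02 to 0.46, adjusted p = 0.0539), and it passed without SOR+NOB replicate 1 (0.33, adjusted p = 0.00166), with total counts in place of TMM (adjusted p = 0.0274) and with a replicate block (adjusted p = 0.0304). Against NOB the log2FC of 0.17 (adjusted p = 0.165) also passed without SOR+NOB replicate 1 (0.27, adjusted p = 0.0111). Against SOR the log2FC was -0.18 (adjusted p = 0.138), -0.09 without replicate 1 and -0.30 without replicate 2 of SOR+NOB, the last of which passed (adjusted p = 0.0179).

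Counted over the members, SOR+NOB differed from SOR in 5 of 7, where 63.0% of all tested genes did. FAH rose (31.4% of tested genes rose) and TAT, HGD, AFMID and KYNU fell (31.6% fell), with a median log2FC of -0.60 over the 7, against -0.01 over all tested genes. SOR+NOB differed from NOB in 6 of 7, where 60.7% of tested genes did: HPD, HGD, FAH and KYNU rose (30.3% rose) and TAT and AFMID fell (30.4% fell). The interaction is the effect of nobiletin with sorafenib present minus its effect without. It passed for 3 of 7 members, all negative, where 52.0% of tested genes passed, 25.1% positive and 26.9% negative. For TAT it was -2.04 ± 0.25 (adjusted p = 5.88e-07, and -1.87 without SOR+NOB replicate 1), for HGD -0.64 ± 0.08 (5.45e-07, and -0.62) and for AFMID -0.79 ± 0.08 (1.55e-08, and -0.76). For KYNU it was -0.33 ± 0.14 (adjusted p = 0.0534) and passed without SOR+NOB replicate 1 (-0.42, adjusted p = 0.00238), without NOB replicate 1 (0.0406) or 3 (0.0316) and without SOR replicate 3 (0.04). For HAAO it was -0.25 (adjusted p = 0.171, and -0.15 without SOR+NOB replicate 1) and passed without SOR+NOB replicate 2 (-0.37, adjusted p = 0.0351). HPD (-0.04, interval -0.26 to 0.17) and FAH (0.09, interval -0.14 to 0.32) did not pass, with values of 0.04 for HPD and 0.15 for FAH without SOR+NOB replicate 1.

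Levels between genes were compared per length, in the authors' FPKM (counts scaled by exon length and library total). The exon lengths were 2223 bases for HPD, 2726 for HAAO, 2983 for HGD, 4048 for AFMID, 5407 for TAT, 7203 for FAH and 17600 for KYNU. The order rests on them, and whether they match the transcripts present was not tested. In mean CPM, without length, the Control order was HGD (130.5), AFMID (120), HPD (72.8), KYNU (35.6), FAH (35.1), HAAO (23.4) and TAT (9.11). The order in SOR+NOB was HPD (62.3 ± 7.27 FPKM), HGD (44.5 ± 2.06), AFMID (24.2), HAAO (9.87), FAH (7.34), KYNU (1.5) and TAT (0.427), with no overlap between neighbours (mean ± SD, n = 3). In SOR it was HGD (76.1 ± 0.98), HPD (60.2 ± 0.83), AFMID (37.1), HAAO (11.4), FAH (5.74), KYNU (3.26) and TAT (2.71), again without overlap. In NOB, HGD (40 FPKM) led, HPD (35) overlapped AFMID (33.4), and KYNU (1.17) overlapped TAT (1.11), with HAAO (8.89) and FAH (5.85) between. In Control the order was HGD (43.6 ± 1.55), HPD (32.6 ± 1.64), AFMID (29.5), HAAO (8.54), FAH (4.85), and then KYNU (2.02) and TAT (1.68), whose libraries overlapped. KMO and TDO2 came last in every group. In FPKM, HPD thus stood above HGD in SOR+NOB alone, which also depends on the exon lengths. In CPM the SOR+NOB libraries had 123, 159 and 143 for HPD and 130, 144 and 133 for HGD, so that HPD lay below HGD in replicate 1.

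**Figure D3:**
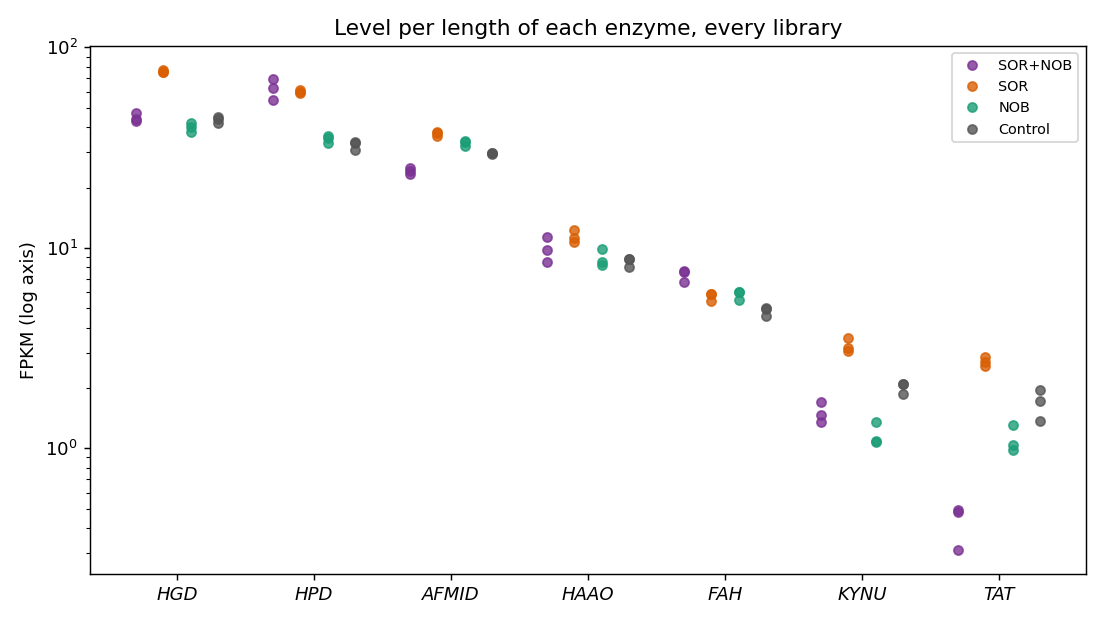
FPKM of each tested enzyme (log vertical axis) in every library, by group. HGD, HPD and AFMID lie above the others in all 4 groups, and TAT in SOR+NOB (mean 0.427 FPKM) is the lowest.

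Ratios within a library, chosen after the values were seen, do not depend on scaling between libraries. HPD over HGD in FPKM was 1.28, 1.48 and 1.43 in SOR+NOB, 0.807, 0.788 and 0.778 in SOR, 0.899, 0.840 and 0.882 in NOB, and 0.767, 0.687 and 0.794 in Control. All SOR+NOB values lay above 1 and above those of the other groups. Where a ratio lies relative to 1 depends on the exon lengths used, while its order between groups does not. Since the ratios were chosen for what they showed, they are given as a description with no test. TAT over HPD averaged 0.0068 ± 0.0011 in SOR+NOB, 0.0451 ± 0.0026 in SOR, 0.0318 ± 0.0051 in NOB and 0.0518 ± 0.0114 in Control (SD, n = 3 each). FAH over HGD averaged 0.165 in SOR+NOB, 0.0754 in SOR, 0.146 in NOB and 0.111 in Control. AFMID over TK1 averaged 1.33 ± 0.13 in SOR+NOB, 7.10 ± 0.62 in SOR, 2.81 ± 0.21 in NOB and 7.81 ± 0.90 in Control.

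**Figure D4:**
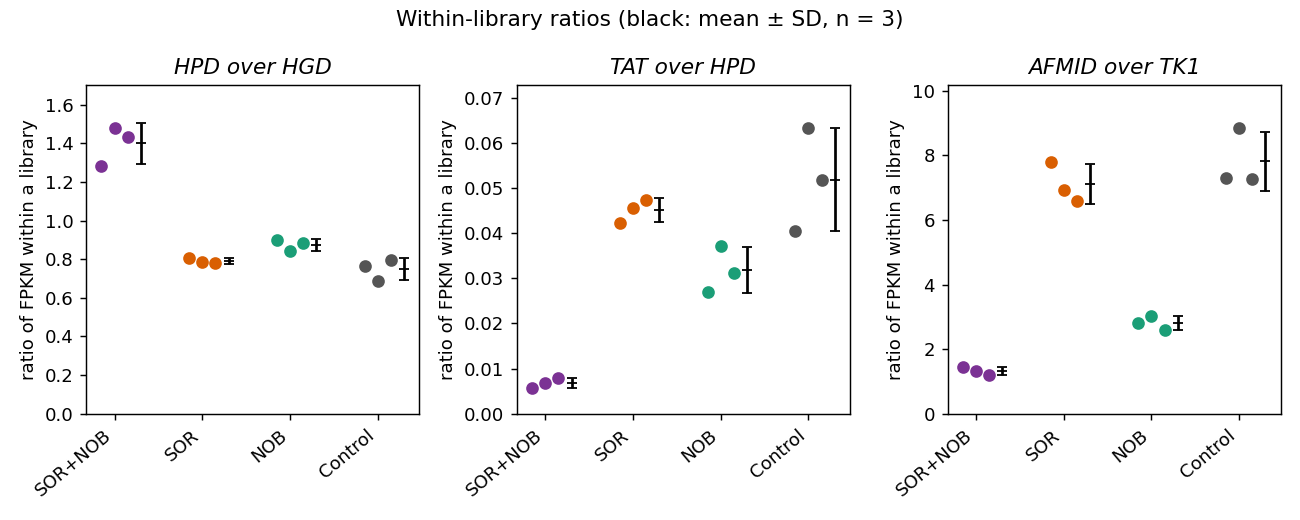
Ratios of FPKM within each library (points, 3 per group, axes from 0) with mean ± SD (black), for HPD over HGD, TAT over HPD and AFMID over TK1. HPD over HGD is 1.28 to 1.48 in SOR+NOB and below 1 in all other libraries, where the place relative to 1 depends on the exon lengths used.

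Of 29 other genes that feed, support or continue these routes, 24 were tested. IDO1 and NMNAT2 had 0 counts, IDO2 had 1, IL4I1 had 41 and HPDL had 65. In SOR+NOB against Control 10 rose and 3 fell, in SOR 7 rose and 3 fell, and in NOB 6 rose and 2 fell (edgeR, background shares as given above). Without SOR+NOB replicate 1 the calls among these genes numbered 14 in SOR+NOB, 11 in SOR and 10 in NOB against Control, 19 in SOR+NOB against SOR, 18 in SOR+NOB against NOB and 17 for the interaction. Calls over all genes were also more in that fit. Against Control they numbered 11392 (10981 with the library) in SOR+NOB, 8420 (7020) in SOR and 7944 (6536) in NOB. They numbered 11222 (10785) in SOR+NOB against SOR, 10905 (10387) in SOR+NOB against NOB and 9807 (8908) for the interaction. MAOA and MAOB, the monoamine oxidases that break down serotonin and other amines, parted. MAOA fell in NOB (log2FC -1.72 ± 0.07, adjusted p = 8.67e-15) and in SOR+NOB (-1.0 ± 0.07, adjusted p = 1.38e-11, and -1.03 without SOR+NOB replicate 1). MAOB rose in SOR+NOB (0.48 ± 0.07, adjusted p = 1.76e-06, and 0.49 without that library), in SOR (1.0 ± 0.07, adjusted p = 3.83e-11) and in NOB (0.69 ± 0.07, adjusted p = 1.7e-08). QPRT, which takes quinolinate towards NAD, rose in SOR against Control (log2FC 1.05 ± 0.05, adjusted p = 3.75e-13) and fell in SOR+NOB against SOR (-0.84 ± 0.05, adjusted p = 5e-12, and -0.82 without that library). NMNAT3, a mitochondrial NAD-making enzyme, rose in SOR+NOB against Control (1.29 ± 0.15, adjusted p = 1.68e-07, and 1.24 without that library) and against NOB (1.07 ± 0.15, adjusted p = 2.23e-06, and 1.02 without it).

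In the tyrosine route, GSTZ1, the isomerase between HGD and FAH, rose in NOB against Control (log2FC 0.87 ± 0.11, adjusted p = 2.01e-06). GOT2, the mitochondrial aspartate aminotransferase, rose in SOR+NOB (0.67 ± 0.06, adjusted p = 1.9e-09, and 0.60 without SOR+NOB replicate 1) and in NOB (0.40 ± 0.06, adjusted p = 1.26e-05) against Control, and in SOR+NOB against SOR (log2FC 0.68 ± 0.06, adjusted p = 1.87e-09, and 0.60 without that library). Its cytosolic relative GOT1 fell in SOR against Control (-0.66 ± 0.05, adjusted p = 8.79e-10) and rose in SOR+NOB against SOR (0.72 ± 0.05, adjusted p = 8.26e-11, and 0.70 without that library). GCH1, the first enzyme of tetrahydrobiopterin synthesis, rose in SOR against Control (0.93 ± 0.08, adjusted p = 4e-09) and in SOR+NOB against NOB (0.65 ± 0.08, adjusted p = 6.25e-07, and 0.61 without that library), and PTS of the same synthesis also rose in the second comparison (0.84 ± 0.14, adjusted p = 3.02e-05, and 0.64 without that library). None of the 7 genes of this cofactor was called in NOB against Control, where 38.2% of all tested genes were. Of the 24 genes, 5 rose and 9 fell in SOR+NOB against SOR, where 31.4% of all tested genes rose and 31.6% fell, and MAOA was among those that fell (log2FC -0.89 ± 0.07, adjusted p = 9.91e-11, and -0.92 without that library). In SOR+NOB against NOB 9 rose and 8 fell, where 30.3% of all rose and 30.4% fell, with MAOA higher (0.72 ± 0.07, adjusted p = 6.86e-09, and 0.69 without that library). The interaction passed for 13 of the 24, near the 52.0% of all tested genes, of which 5 were positive, among them GOT1 (0.94 ± 0.07, and 0.92 without that library) and MAOA (0.83 ± 0.09, and 0.81), and 8 negative, among them QPRT (-0.98 ± 0.07, and -0.96) and MAOB (-1.21 ± 0.09, and -1.20).

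**Figure D5:**
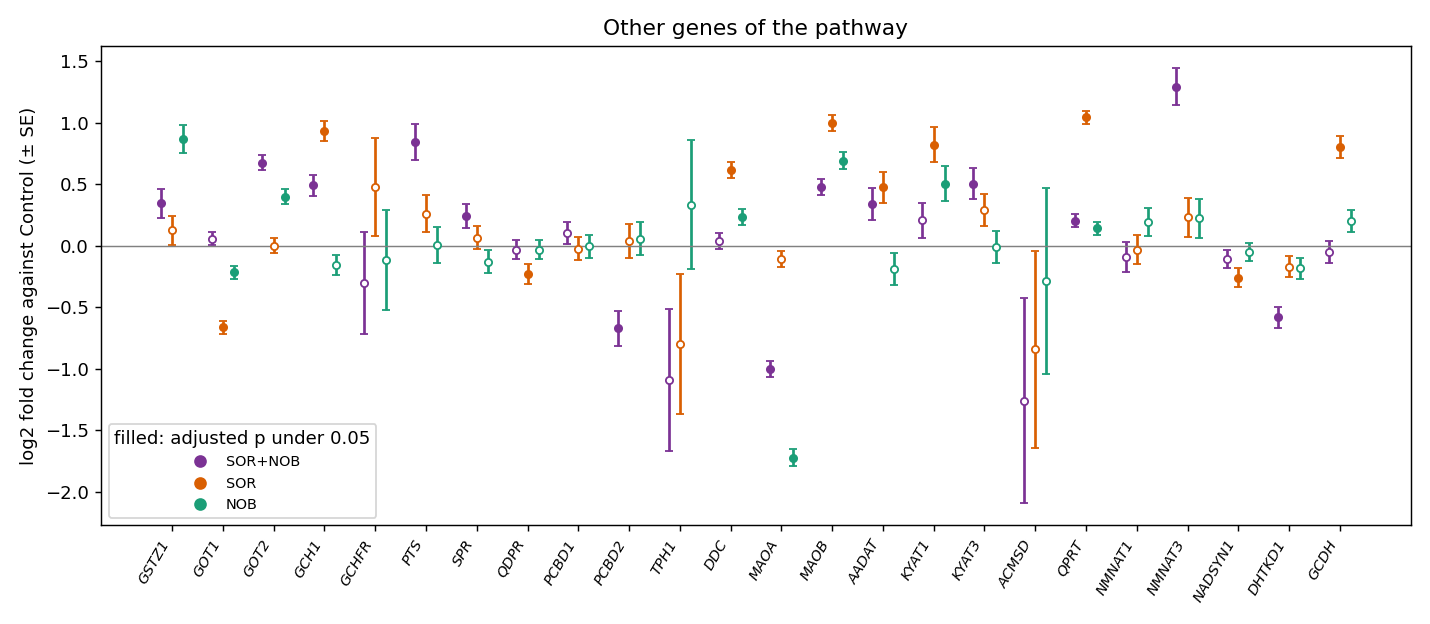
Log2 fold change against Control (± SE derived from the edgeR F statistic) of the 24 tested other genes of the pathway in SOR+NOB, SOR and NOB. Filled points mark adjusted p under 0.05. MAOA lies at -1.72 in NOB and -1.0 in SOR+NOB, while NMNAT3 lies at 1.29 in SOR+NOB.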

How the data were processed

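RNA of 12 HepG2 libraries was measured. Per the labels' protocols, TRIzol was used for extraction, and libraries were made by poly(A) selection or by depletion of ribosomal RNA, with no word on which of them. Per the submitters' processing notes, HISAT2 2.0.5, featureCounts 1.5.0-p3 and GRCh38 were used. Neither the strand setting nor what was done with multi-mapped reads is stated in the sources used. The authors deposited raw counts per gene, and FPKM of the same libraries. The deposited FPKM equalled count per exon length and library total times 1 factor per library of 0.939 to 1.08. The authors' group FPKM table was not used.

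Groups came from the labels. edgeR 4.0.16 in R 4.3.3 was run on the counts. Its filterByExpr left 17115 genes, TMM set the scaling, and a robust quasi-likelihood model held 1 mean per group for the 12 libraries (residual degrees of freedom 8, common dispersion equal to a biological CV of 8.44%). Benjamini-Hochberg adjustment covered every tested gene in a comparison, with calls made at adjusted p under 0.05. The scripts were tested on simulated data. Total counts of 17945656 to 25669823, and how far replicates spread, set the precision. The members and lists were chosen with earlier results of these data known. Named genes are all members, up to 4 called list genes with the smallest p in each comparison and any not detected, genes that overlap a member or start within 1000 bases of its start, and the 2 protein-coding genes most like each member.

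Whether replicate numbers pair libraries was checked, and they did not. Alternatives were DESeq2 1.42.0, RLE scaling, total counts, no filter, only the compared libraries, a replicate block, limma 3.58.1 on log2(FPKM + 1) and log2(FPKM + 0.1), protein-coding genes only, and leaving out each library. Sequences are from RefSeq (GRCh38.p14), and plots were made in Python 3.11.15 with matplotlib 3.10.9.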

Additional observations from a re-analysis of the deposited data

Results flagged for a closer look

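The effect of nobiletin differed with and without sorafenib for 3 members, by the edgeR interaction test of the difference itself. For TAT the effect with sorafenib minus that without was -2.04 on the log2 scale (adjusted p = 5.88e-07): nobiletin went with a log2FC of -2.63 in the presence of sorafenib and -0.59 in its absence. For HGD the difference was -0.64 (adjusted p = 5.45e-07), from effects of -0.76 with sorafenib and -0.11 without. For AFMID it was -0.79 (adjusted p = 1.55e-08), and here the effects had opposite signs, -0.60 with sorafenib and 0.19 without. The interaction passed for 52.0% of all tested genes.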

How the results depend on the processing

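Of 1064 recomputed member results, 1032 kept their call, 14 lost it, 18 gained it and 0 of the called values changed sign. Of 456 recomputed counts of calls, 454 stayed within 1.5 times. In NOB against Control the number of members called ranged from 2 (without Control replicate 2) to 5 when 1 library was left out, against 4 with all. The number of other pathway genes called ranged from 5 (without Control replicate 3) to 10, against 8. Over all genes the calls in these fits ranged from 5463 (without Control replicate 3) to 7944, against 6536. With total counts in place of TMM the median log2FC of all tested genes moved to -0.10 in SOR against Control and to 0.14 in SOR+NOB against SOR, and the share of calls that were higher was 60.1% in NOB against Control, against 49.6%, and 38.9% in SOR against Control, against 53%.

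The replicate numbers did not pair the libraries: deviations of the 18 pairs with the same number had correlations from -0.05 to 0.04, and 2 of 12 libraries correlated best with their own number. With a replicate block the members called numbered 4 in NOB, 7 in SOR and 6 in SOR+NOB against Control. They numbered 5 in SOR+NOB against SOR, 6 in SOR+NOB against NOB and 4 for the interaction. Over all 17115 tested genes that fit called 6347 in NOB, 6816 in SOR and 10798 in SOR+NOB against Control. It called 10650 in SOR+NOB against SOR, 10212 in SOR+NOB against NOB and 8741 for the interaction. KYNU passed for the interaction with the replicate block (adjusted p = 0.039), with no filter (0.0247) and with protein-coding genes only (0.0254). HPD in NOB against Control passed with only the compared libraries (adjusted p = 0.0492), and HPD in SOR+NOB against SOR with total counts (0.0135). TDO2 in each group, and KMO in SOR+NOB, SOR and Control, had no more than the 3 counts that set the limit at this depth. KMO in NOB, with 13 counts, lay above that limit, though its reads are uncertain.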

Other observations

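The protein-coding genes whose centred log2 CPM lay closest to each member over the 12 libraries were sought among 11112 genes averaging 2 CPM or more, by root mean square difference. For AFMID they were SDHC (0.0352 log2 units) and PTK7 (0.062), where AFMID itself spanned 0.692. For FAH they were MAN2B1 (0.0597) and BSG (0.0607), with a span of 0.782. For HAAO they were MTERF4 (0.0719) and RNF167 (0.0855), with a span of 0.608. GPX4 (0.0905) and ACAA1 (0.119) were closest to HPD, which spanned 1.21, and GNAZ (0.0923) and ACSF2 (0.095) to HGD, which spanned 1.03. UGT2B7 (0.127) and A2M (0.134) were closest to KYNU, which spanned 1.72. For TAT, which had the widest span (3.13), they were ALDH1B1 (0.204) and CYREN (0.208). These were the largest differences in log2 units, which were not scaled to the span of the member. These differences share library scaling and depth and are given as a description.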
